A study of Homo sapiens with 18 samples.

Results

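The liver X receptors and the genes of cholesterol export were examined in the human lung cancer cell line NCI-H2347 after treatment with pioglitazone, a thiazolidinedione drug that activates the nuclear receptor PPARG. The set holds 8 genes, namely the receptors NR1H3 and NR1H2, the exporters ABCA1 and ABCG1, the phospholipid genes LPCAT3 and PLTP, the ubiquitin ligase MYLIP and the lipoprotein APOE. Members were all probes of the expression table annotated to these symbols, which gave 12 of 47323 probes and 7 of the 8 genes. The probe annotation used here lists no probe for NR1H2, which was not analysed here. The treated groups had 50 µM pioglitazone for 12, 24 or 48 h, starting 24 h after plating, and the vehicle groups had DMSO for the same times, all in RPMI with 5% FBS. Each of the 6 groups was measured on 3 Illumina HT-12 v4 BeadChip arrays, 18 in all. One cell line was used. The labels do not say that arrays of a group came from separate cultures, so the p-values reflect only how far these arrays differed among themselves, and that spread may be technical.

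Liver X receptors are nuclear receptors that bind oxysterols, the oxidised derivatives of cholesterol, and act on DNA as heterodimers with the retinoid X receptors. When cellular cholesterol is high they switch on genes that move cholesterol out of the cell, remodel membrane phospholipids and lower uptake of lipoproteins. In macrophages PPARG has been placed upstream of NR1H3, and NR1H3 upstream of the exporters ABCA1 and ABCG1.

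Arrays detected 17040 to 18880 probes each at a detection p-value under 0.01, and the correlation between arrays of one group lay between 0.973 and 0.995. The raw background, taken as the median intensity of undetected probes, fell into 2 ranges. It was 138 to 153 on 7 arrays, namely all 24 h arrays and replicate 3 of pioglitazone at 48 h, and 102 to 113 on the other 11. The comparisons of drug and vehicle at 12 h and at 24 h therefore each lay within 1 range, and the 48 h comparison did so only without pioglitazone replicate 3. The 6 epithelial markers EPCAM, CDH1, KRT7, KRT8, KRT18 and KRT19 were detected on all 18 arrays, while PTPRC, CD163 and MARCO, defining genes of leukocytes and macrophages, were detected on 0 arrays. Among the other macrophage markers, CD68 and CSF1R were detected on 18 arrays, CD14 on 17 and MSR1 on 1. The summed signal of the epithelial markers was 35904 to 37944, 48653 to 50868 and 42891 to 50201 with pioglitazone at 12, 24 and 48 h, against 33684 to 35797, 43349 to 47675 and 39721 to 40497 with vehicle, and its part in the results was not tested. In such bulk samples, fewer cells of a type and less RNA per cell cannot be told apart.

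All values below are normalised log2 signals, and differences are pioglitazone minus vehicle with Benjamini-Hochberg adjustment over 11680 genes in limma, at a threshold of 0.05. The members moved in both directions. LPCAT3 rose at all 3 times, ABCA1 rose at 24 h and 48 h, ABCG1 fell at all 3 times and PLTP fell at 48 h, while NR1H3, MYLIP and APOE did not pass the test at any time. At 12 h 1 member rose and 1 fell of 7 tested, or 28.6%, beside 8.80% of all genes (4.32% higher and 4.48% lower). At 24 h 2 rose and 1 fell, or 42.9%, beside 23.3% of all genes (10.5% higher and 12.8% lower). At 48 h 2 rose and 2 fell, or 57.1%, beside 29.7% of all genes (14.3% higher and 15.4% lower). With 7 genes each member weighs heavily in these shares, and the median difference of the members was 0.08, 0.14 and −0.24 at the 3 times, against −0.0039, −0.02 and 0.01 over all genes. The members and the lists below were chosen with earlier results of these data known. Their shares beside those of all genes are therefore descriptions and not tests.

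**Figure D1:**
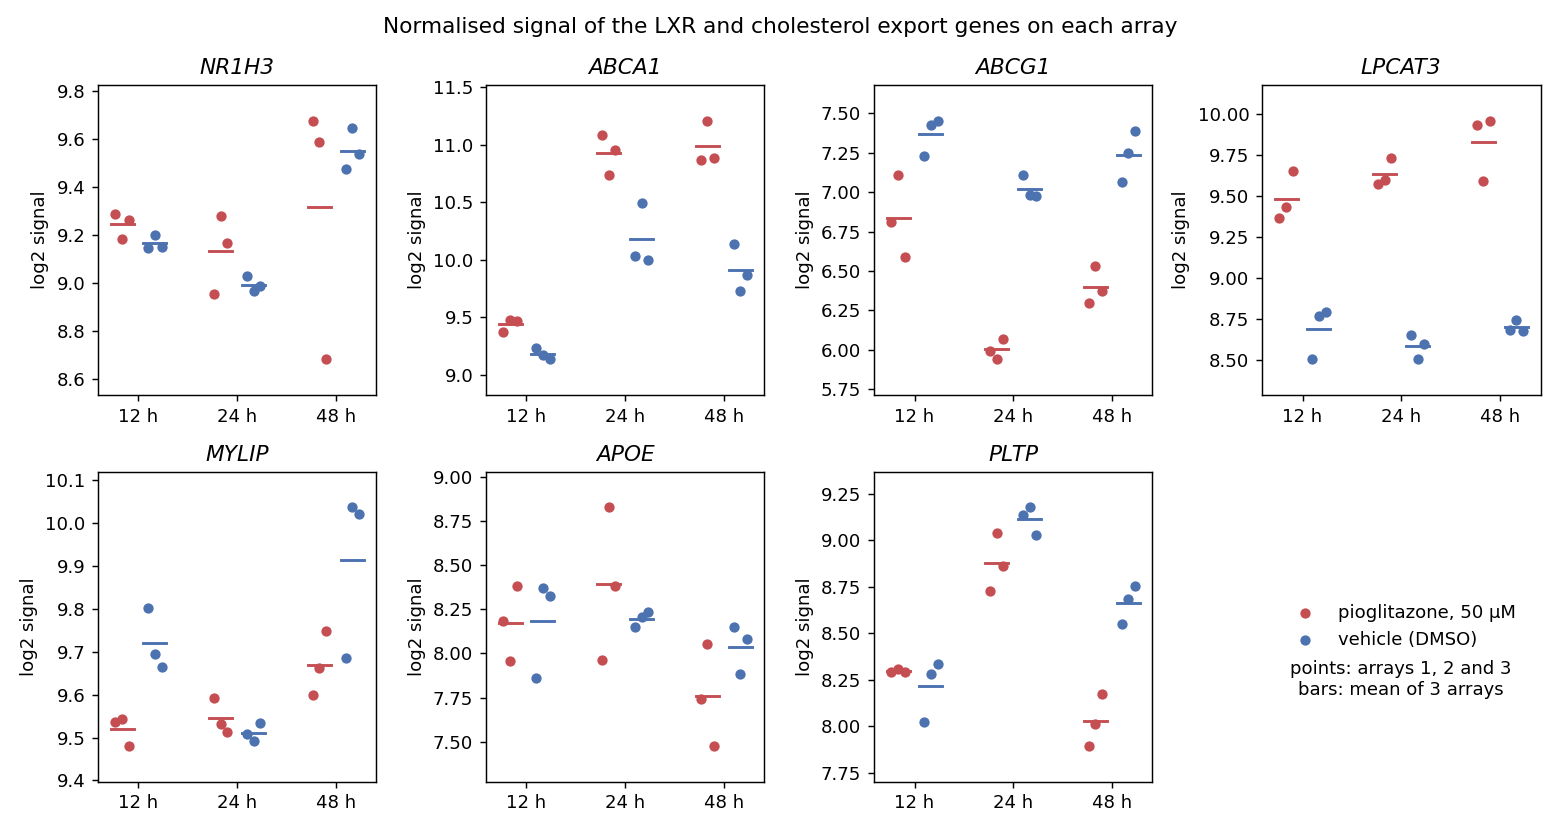
Normalised log2 signal (y axis) of the 7 measured genes on each array, with pioglitazone (red) left of vehicle (blue) at each time (x axis); points are arrays and bars the mean of 3. LPCAT3 is higher and ABCG1 lower with pioglitazone on every array at each time, ABCA1 is higher with pioglitazone and stands higher in both arms at 24 and 48 h than at 12 h, and NR1H3 has 1 low pioglitazone array at 48 h, at 8.68.

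The promoter windows of the exporter ABCA1 and the enzyme LPCAT3, the members that rose, are shown because receptor binding sites can be looked for in them. RefSeq (GRCh38.p14) promoter windows, running from 250 bases before the start of a transcript to 50 after it, were matched for 7 of the 8 members, which have 13 windows. ABCG1 has no window in that table. Capitals mark the match to DR4, the pair of half-sites spaced by 4 bases at which LXR and RXR bind together. The ABCA1 window lies at chr9:104928106-104928405 on the minus strand and the LPCAT3 window at chr12:7018427-7018726 on the minus strand. The 2 sequences read 5′ to 3′ as follows.
ABCA1: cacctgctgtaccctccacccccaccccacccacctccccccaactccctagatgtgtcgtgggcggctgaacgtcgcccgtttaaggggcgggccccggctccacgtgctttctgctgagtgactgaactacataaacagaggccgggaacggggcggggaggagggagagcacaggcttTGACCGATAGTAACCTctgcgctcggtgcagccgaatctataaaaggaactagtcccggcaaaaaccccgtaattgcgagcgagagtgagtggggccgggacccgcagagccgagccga
LPCAT3: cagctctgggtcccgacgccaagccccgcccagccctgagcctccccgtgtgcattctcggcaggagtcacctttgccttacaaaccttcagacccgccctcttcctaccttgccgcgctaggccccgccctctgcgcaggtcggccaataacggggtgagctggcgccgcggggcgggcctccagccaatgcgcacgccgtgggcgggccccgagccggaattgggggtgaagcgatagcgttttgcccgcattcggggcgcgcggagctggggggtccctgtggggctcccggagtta

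The DR4 search used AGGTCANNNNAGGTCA on both strands with up to 2 mismatches at the fixed letters, and 1 of the 13 member windows held a match. That window was ABCA1's, where the match runs from −69 to −54 relative to the start and has 2 mismatches; read on the opposite strand it is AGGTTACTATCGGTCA. Of 35116 RefSeq windows of the same length, 2.34% held such a match. The single half-site AGGTCA, which is also part of any exact DR4, was in 1 member window, that of an NR1H3 transcript, and in 13.8% of all windows. The DR1 spacing used by PPARG with RXR, AGGTCANAGGTCA with up to 2 mismatches, was in 0 member windows and in 2.97% of all. The LPCAT3 window matched none of the 3 motifs. These matches are descriptions of letters, and sites outside the windows were not searched.

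NR1H3 encodes LXR alpha, the receptor whose own gene is an LXR target in human cells. Its signal was 9.29, 9.18 and 9.27 with pioglitazone at 12 h, against 9.15, 9.20 and 9.15 with vehicle. At 24 h the drug arrays read 8.96, 9.28 and 9.17, against 9.03, 8.97 and 8.99 with vehicle, and the groups overlapped at both times. At 48 h the drug arrays read 9.68, 9.59 and 8.68, against 9.48, 9.65 and 9.54 with vehicle. The low value belongs to the drug array with the high raw background. The differences were 0.08, 0.14 and −0.24 (SE 0.18 each, n = 3 arrays per group; adjusted p = 0.855, 0.616 and 0.346, limma), and without that array the 48 h difference was 0.08. The 95% interval at 48 h ran from −0.62 to 0.14.

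ABCA1 encodes the transporter that loads cholesterol and phospholipid onto lipid-poor apolipoprotein A-I, and its response to the drug grew with time. At 12 h its signal was 9.37, 9.48 and 9.47 with pioglitazone, against 9.23, 9.17 and 9.14 with vehicle. At 24 h it was 11.08, 10.74 and 10.95 with pioglitazone, against 10.03, 10.50 and 10.00 with vehicle. At 48 h it was 10.87, 11.21 and 10.88 with pioglitazone, against 10.14, 9.73 and 9.87 with vehicle. Every drug array lay above every vehicle array of its time. The difference was 0.26 at 12 h (SE 0.14, n = 3; adjusted p = 0.306, limma), 0.75 at 24 h (adjusted p = 0.00126), which is 1.68-fold, and 1.07 at 48 h (adjusted p = 2.43e-05), which is 2.11-fold. The drug's effect at 48 h exceeded that at 12 h by 0.82 (SE 0.20; adjusted p = 0.0173, limma interaction term), a test that 2 of 7 members and 9.10% of all genes passed (3.88% higher and 5.22% lower). The step between 12 h and 24 h, 0.49, did not pass (adjusted p = 0.272), and neither did that between 24 h and 48 h, 0.33 (adjusted p = 0.384). Under median scaling in place of quantile normalisation the 24 h difference was 0.55 and no longer passed (adjusted p = 0.265). Without the high-background array the 48 h difference was 1.12.

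ABCA1 also moved in the vehicle arm, by 1.00 at 24 h against 12 h (adjusted p = 0.000115, limma) and by 0.73 at 48 h against 12 h (adjusted p = 0.00139), which under median scaling were 1.57 (adjusted p = 0.00215) and 0.50 (adjusted p = 0.341), beside medians of all genes of 0.54 and −0.20. The 2 drug groups at 24 h and 48 h had the highest levels and overlapped each other, the vehicle groups at 24 h and 48 h came next and overlapped each other, and vehicle at 12 h was lowest. The 48 h and 12 h vehicle groups share 1 range of raw background. The 24 h and 12 h vehicle groups do not, so time and array background cannot be told apart in that step.

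ABCG1 encodes the exporter that passes cholesterol to formed high-density lipoprotein, and it went the opposite way to ABCA1. At 12 h its signal was 6.81, 7.11 and 6.59 with pioglitazone, against 7.23, 7.42 and 7.45 with vehicle. The 24 h signal was 5.99, 5.94 and 6.07 with pioglitazone, against 7.11, 6.98 and 6.97 with vehicle. At 48 h it was 6.30, 6.53 and 6.37 with pioglitazone, against 7.06, 7.25 and 7.39 with vehicle. In normalised signal every drug array lay below every vehicle array of its time. The difference was −0.53 at 12 h (SE 0.13, n = 3; adjusted p = 0.0131, limma), −1.02 at 24 h (adjusted p = 2.45e-05), which is 2.03-fold lower, and −0.83 at 48 h (adjusted p = 9.05e-05), which is 1.78-fold lower. The 12 h call was lost when any of 4 arrays was left out, namely pioglitazone replicate 1 or 3 or vehicle replicate 2 or 3 (adjusted p = 0.052, 0.0694, 0.0561 and 0.0627). It was also lost under median scaling, as was the 48 h call (−0.51, adjusted p = 0.253), and without background subtraction the differences at 12, 24 and 48 h were −0.29, −0.45 and −0.41, all past the threshold.

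**Figure D2:**
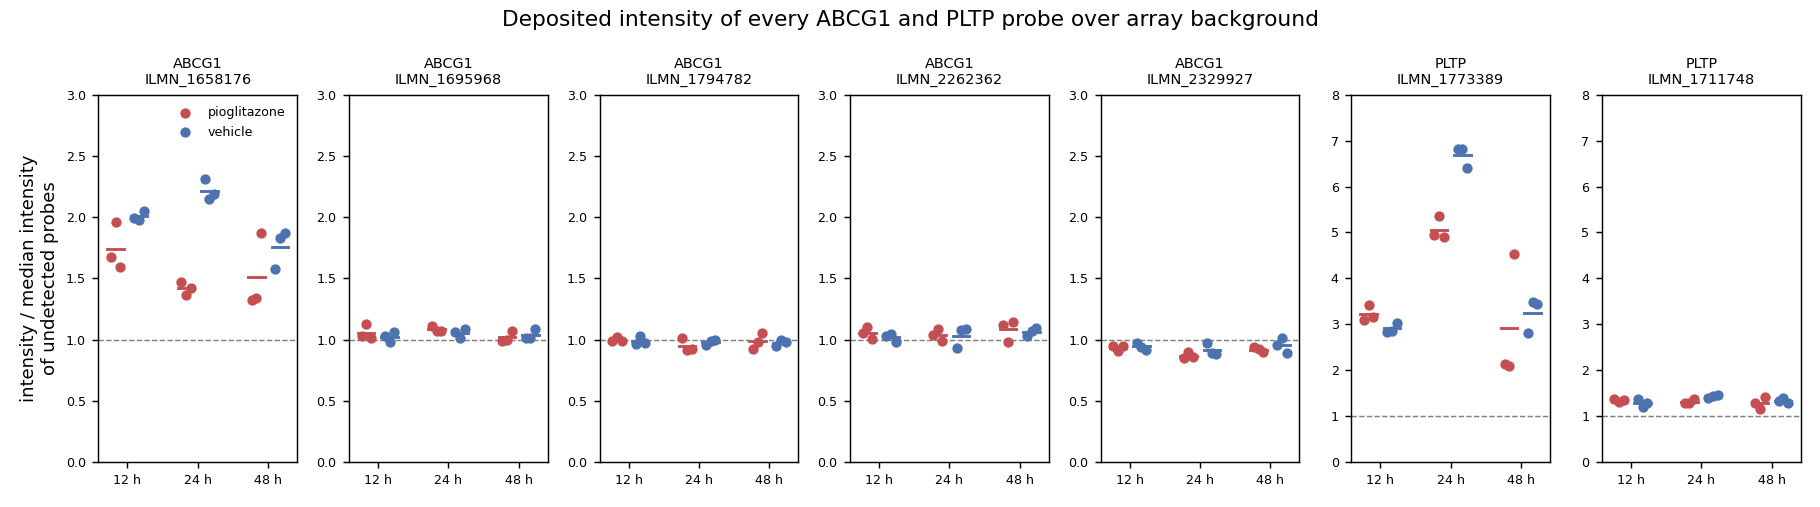
Raw intensity over the array's own background, as a ratio with no unit (y axis), for the 5 ABCG1 and 2 PLTP probes, with pioglitazone (red) left of vehicle (blue) at 12, 24 and 48 h (x axis); points are arrays and bars means. One ABCG1 probe reads 1.32 to 2.31 times background and the other 4 stay between 0.847 and 1.15.

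The ABCG1 result rests on 1 probe of 5. ILMN_1658176 was detected on all 18 arrays, at 1.32 to 2.31 times background, and its lowest ratios were on pioglitazone arrays of 24 h and 48 h. At 48 h its ratios were 1.32, 1.34 and 1.870 with pioglitazone, against 1.58, 1.83 and 1.867 with vehicle. The ratio of 1.870 belongs to the high-background array, so the 48 h groups were not apart before normalisation. Leaving out any 1 array gave a 48 h difference of −0.92 to −0.76. The 4 other probes, ILMN_1695968, ILMN_1794782, ILMN_2262362 and ILMN_2329927, were detected on 0 arrays and lay at 0.847 to 1.15 times background. They give no level of the transcripts they target, and which transcripts each probe reads was not analysed here.

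LPCAT3 encodes the acyltransferase that puts polyunsaturated chains into membrane phospholipids, and it rose at all 3 times. At 12 h its signal was 9.37, 9.43 and 9.65 with pioglitazone, against 8.51, 8.77 and 8.79 with vehicle. The 24 h signal was 9.57, 9.60 and 9.73 with pioglitazone, against 8.65, 8.51 and 8.60 with vehicle. At 48 h it was 9.93, 9.59 and 9.96 with pioglitazone, against 8.68, 8.74 and 8.68 with vehicle. All 9 drug arrays lay above all 9 vehicle arrays. The difference was 0.79 at 12 h (SE 0.12, n = 3; adjusted p = 0.000404, limma), 1.05 at 24 h (adjusted p = 9.86e-06) and 1.12 at 48 h (adjusted p = 1.41e-06), or 1.73-fold, 2.06-fold and 2.18-fold. The increase of the effect between 12 h and 48 h, 0.33, did not pass the test (95% interval −0.02 to 0.68; adjusted p = 0.245, limma). Under median scaling the 12 h and 24 h differences, 0.96 and 0.79, did not pass (adjusted p = 0.33 and 0.154).

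PLTP encodes the plasma phospholipid transfer protein, a secreted protein that moves phospholipid between lipoproteins, and it was lower with the drug at the last time. At 12 h the signal of its brighter probe, ILMN_1773389, was 8.29, 8.31 and 8.29 with pioglitazone, against 8.02, 8.28 and 8.34 with vehicle. The 24 h signal was 8.73, 9.04 and 8.87 with pioglitazone, against 9.14, 9.18 and 9.03 with vehicle. At 48 h it was 7.90, 8.01 and 8.17 with pioglitazone, against 8.55, 8.68 and 8.76 with vehicle. In normalised signal the groups overlapped at 12 h and 24 h and were apart at 48 h. The difference was 0.08 at 12 h (SE 0.11, n = 3; adjusted p = 0.729, limma), −0.24 at 24 h (adjusted p = 0.139) and −0.64 at 48 h (adjusted p = 0.000385), which is 1.55-fold lower. As raw intensity over background, this probe read 2.14, 2.08 and 4.53 with pioglitazone at 48 h, against 2.81, 3.49 and 3.43 with vehicle. The ratio of 4.53 belongs to the high-background array, so the 48 h groups were not apart before normalisation. Without that array the 48 h difference was −0.71. The effect at 48 h was below that at 12 h by an interaction of −0.72 (SE 0.16; adjusted p = 0.00792, limma). The second probe, ILMN_1711748, lay at 1.15 to 1.46 times background and gave 0.11, −0.18 and −0.45, of which none passed the test over all kept probes (adjusted p = 0.81, 0.52 and 0.072). Its interaction between 48 h and 12 h, −0.56, did not pass either (adjusted p = 0.213). Under median scaling the 24 h and 48 h differences of the brighter probe were −0.45 and −0.35 and neither passed (adjusted p = 0.448 and 0.496). With array weights the 24 h difference, −0.23, passed (adjusted p = 0.021).

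In the vehicle arm the brighter PLTP probe moved by 0.90 at 24 h against 12 h (adjusted p = 3.96e-05, limma) and by 0.45 at 48 h against 12 h (adjusted p = 0.00729), which under median scaling were 1.53 (adjusted p = 0.00445) and 0.20 (adjusted p = 0.773). The second probe gave 0.05 and 0.39, and neither passed over all kept probes (adjusted p = 0.864 and 0.122, limma). As for ABCA1, time and array background cannot be told apart in the step from 12 h to 24 h. Vehicle at 24 h was the highest group and pioglitazone at 48 h the lowest, and the lowest group overlapped with vehicle at 12 h. In all, 3 of the 7 members changed in vehicle between 12 h and 24 h, beside 36.6% of all genes (20.1% higher and 16.5% lower), and 2 of 7 between 12 h and 48 h, beside 25.5% (12.0% higher and 13.6% lower). The third change at 24 h was ABCG1, at −0.35 (adjusted p = 0.0393), which turned to 0.25 under median scaling. It lost its call with no filter on dim probes (adjusted p = 0.0521), without vehicle 12 h replicate 2 or 3 (0.109 and 0.121) and without vehicle 24 h replicate 1, 2 or 3 (0.0506, 0.103 and 0.106). The drug's effect differed between 12 h and 24 h for 0 members by limma, beside 0.693% of all genes (0.351% higher and 0.342% lower), and between 24 h and 48 h for 0 members, beside 3.41% (1.25% higher and 2.16% lower). At an unadjusted p under 0.05 the counts were 2 and 1, and limma with array weights called 2 and 1. Over all genes the count of the first test was 81, and 30 to 199 with 1 array left out, and that of the second 398, and 226 to 697. The other settings, array weights among them, gave 0 to 1968 and 11 to 1167 genes. The member counts of 2 and 1 cannot be set against the shares above, which belong to the main fit at the adjusted threshold.

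**Figure D3:**
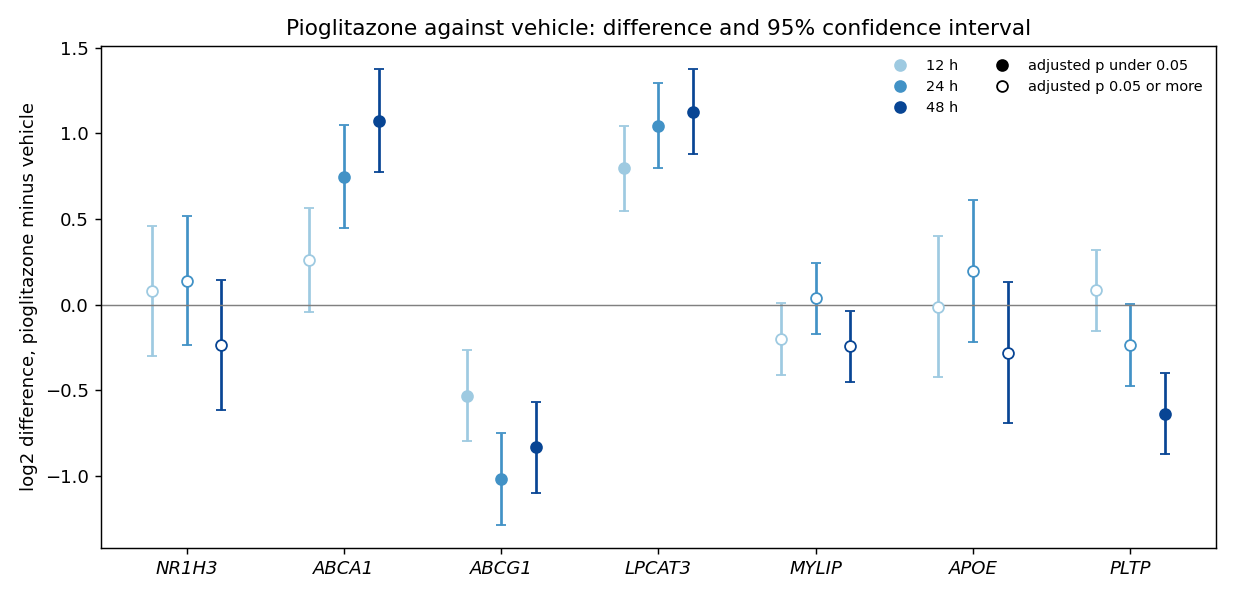
Difference in log2 signal, pioglitazone minus vehicle (y axis), for each gene (x axis) at 12, 24 and 48 h (light to dark), with 95% confidence intervals; filled points passed the threshold. ABCA1 and LPCAT3 reach 1.07 and 1.12 at 48 h, and ABCG1 and PLTP lie at −0.83 and −0.64. The intervals of NR1H3 and APOE include 0 at each time, those of MYLIP and PLTP at 12 h and 24 h, and that of ABCA1 at 12 h.

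MYLIP is a ubiquitin ligase that sends lipoprotein receptors, VLDLR and LRP8 among them, to degradation. Its signal was 9.54, 9.54 and 9.48 with pioglitazone at 12 h, against 9.80, 9.69 and 9.66 with vehicle. The 24 h signal was 9.59, 9.53 and 9.51 with pioglitazone, against 9.51, 9.49 and 9.53 with vehicle, and at 48 h 9.60, 9.66 and 9.75 with pioglitazone, against 9.69, 10.04 and 10.02 with vehicle. The groups were apart at 12 h and overlapped at 24 h and 48 h. The differences were −0.20, 0.04 and −0.24 (SE 0.10 each, n = 3; adjusted p = 0.244, 0.838 and 0.0735, limma). The 48 h value passed without pioglitazone replicate 3, the high-background array (−0.28, adjusted p = 0.0493), and without vehicle replicate 1 (−0.36, adjusted p = 0.0122). It also passed without background subtraction (−0.22, adjusted p = 0.033) and with array weights (−0.32, adjusted p = 0.0197), and it turned to 0.027 under median scaling.

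APOE encodes the apolipoprotein that carries exported cholesterol. Its signal was 8.18, 7.96 and 8.38 with pioglitazone at 12 h, against 7.86, 8.37 and 8.33 with vehicle. At 24 h it was 7.96, 8.83 and 8.38 with pioglitazone, against 8.15, 8.21 and 8.23 with vehicle, and at 48 h 7.74, 8.06 and 7.48 with pioglitazone, against 8.15, 7.88 and 8.08 with vehicle. The groups overlapped at all 3 times. The differences were −0.01, 0.20 and −0.28 (SE 0.20 each, n = 3; adjusted p = 0.982, 0.509 and 0.301, limma), with a 95% interval at 48 h of −0.69 to 0.13.

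Genes around the receptors were read next, from lists of the same pathway. Of 6 RXR partners and coregulators, 3 were tested. RXRA, the common partner of LXR, had differences of −0.17, −0.22 and 0.05 (adjusted p = 0.248, 0.0579 and 0.683, limma) and passed at no time. RXRB fell at 48 h, by 0.49 on the log2 scale (adjusted p = 0.0245), with 10.22, 10.10 and 9.43 in pioglitazone arrays, against 10.42, 10.53 and 10.26 in vehicle arrays. The lowest value is again the high-background array, and the call was lost without it (adjusted p = 0.102), without vehicle replicate 1 or 2 (0.0602 and 0.0914), with array weights (0.0956) and in a fit of the 48 h groups alone (0.171). NCOA1, a coactivator, had −0.04, 0.09 and −0.15 and passed at no time. Its second probe gave 0.56, 0.07 and −0.21, so the probes disagreed at 12 h. The lowest NCOA1 value with pioglitazone at 48 h, 7.97, is also the high-background array. Of 7 enzymes that make or consume oxysterols, 3 were tested, and CH25H, which makes 25-hydroxycholesterol, fell at 24 h by 0.66 (adjusted p = 0.000353). CH25H read 6.68, 6.52 and 6.36 with pioglitazone at 24 h, against 7.18, 7.11 and 7.27 with vehicle. At 12 h and 48 h it differed by −0.15 and −0.13 and did not pass. Without background subtraction its 24 h difference was −0.33 (adjusted p = 0.000696, limma).

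Other genes known as LXR targets, several of them for fatty acid synthesis, rose where they changed. Of 18 listed, 17 had a probe and 7 were tested. The others with a probe, ABCG4, ABCG5, ABCG8, LPL and CETP among them, were below the detection filter. Of the 7 tested, 2, 5 and 3 rose at 12, 24 and 48 h, beside 4.32%, 10.5% and 14.3% of all genes. By limma 0 fell at each time, at an unadjusted p under 0.05 too, while 4.48%, 12.8% and 15.4% of all genes fell at the adjusted threshold. Their median difference was 0.26, 0.55 and 0.34, against −0.0039, −0.02 and 0.01 over all genes. SCD, the stearoyl-CoA desaturase, rose by 0.70, 0.80 and 0.87 (adjusted p = 0.002, 0.000233 and 5.67e-05, limma). FASN, the fatty acid synthase, rose by 0.77, 0.81 and 0.62 (adjusted p = 0.00083, 0.000176 and 0.00112). SREBF1, which encodes the transcription factor SREBP-1 that drives these genes, had 0.39, 0.64 and 0.47 and passed at 24 h (adjusted p = 0.0198), with 8.94, 8.97 and 8.78 in pioglitazone arrays, against 8.27, 8.12 and 8.38 in vehicle arrays. Its second probe gave 0.11, 0.45 and 0.55. At 48 h the SREBF1 drug arrays read 8.03, 7.73 and 8.85, against 7.80, 7.71 and 7.69 with vehicle. The highest of these is the high-background array. ACACA, the acetyl-CoA carboxylase, passed at 24 h (0.47, adjusted p = 0.00994) and 48 h (0.34, adjusted p = 0.0431), and APOC1, a small apolipoprotein, at 24 h (0.55, adjusted p = 0.00718). SMPDL3A had −0.04, 0.04 and 0.01 and MID1IP1 had 0.02, −0.04 and −0.16, and neither passed at any time. The second MID1IP1 probe gave 0.15, 0.11 and 0.19. SCD, FASN and ACACA are also targets of SREBP proteins, so the list is not specific to LXR. The 24 h call of SREBF1 was lost when any of 4 arrays was left out (pioglitazone replicate 1 or 2, vehicle replicate 1 or 2), and the 48 h call of ACACA without pioglitazone replicate 1 or 2 or vehicle replicate 2 or 3, in a fit of the 48 h groups alone (adjusted p = 0.204), with no filter on dim probes (0.0544) and with every kept probe fitted (0.0574).

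**Figure D4:**
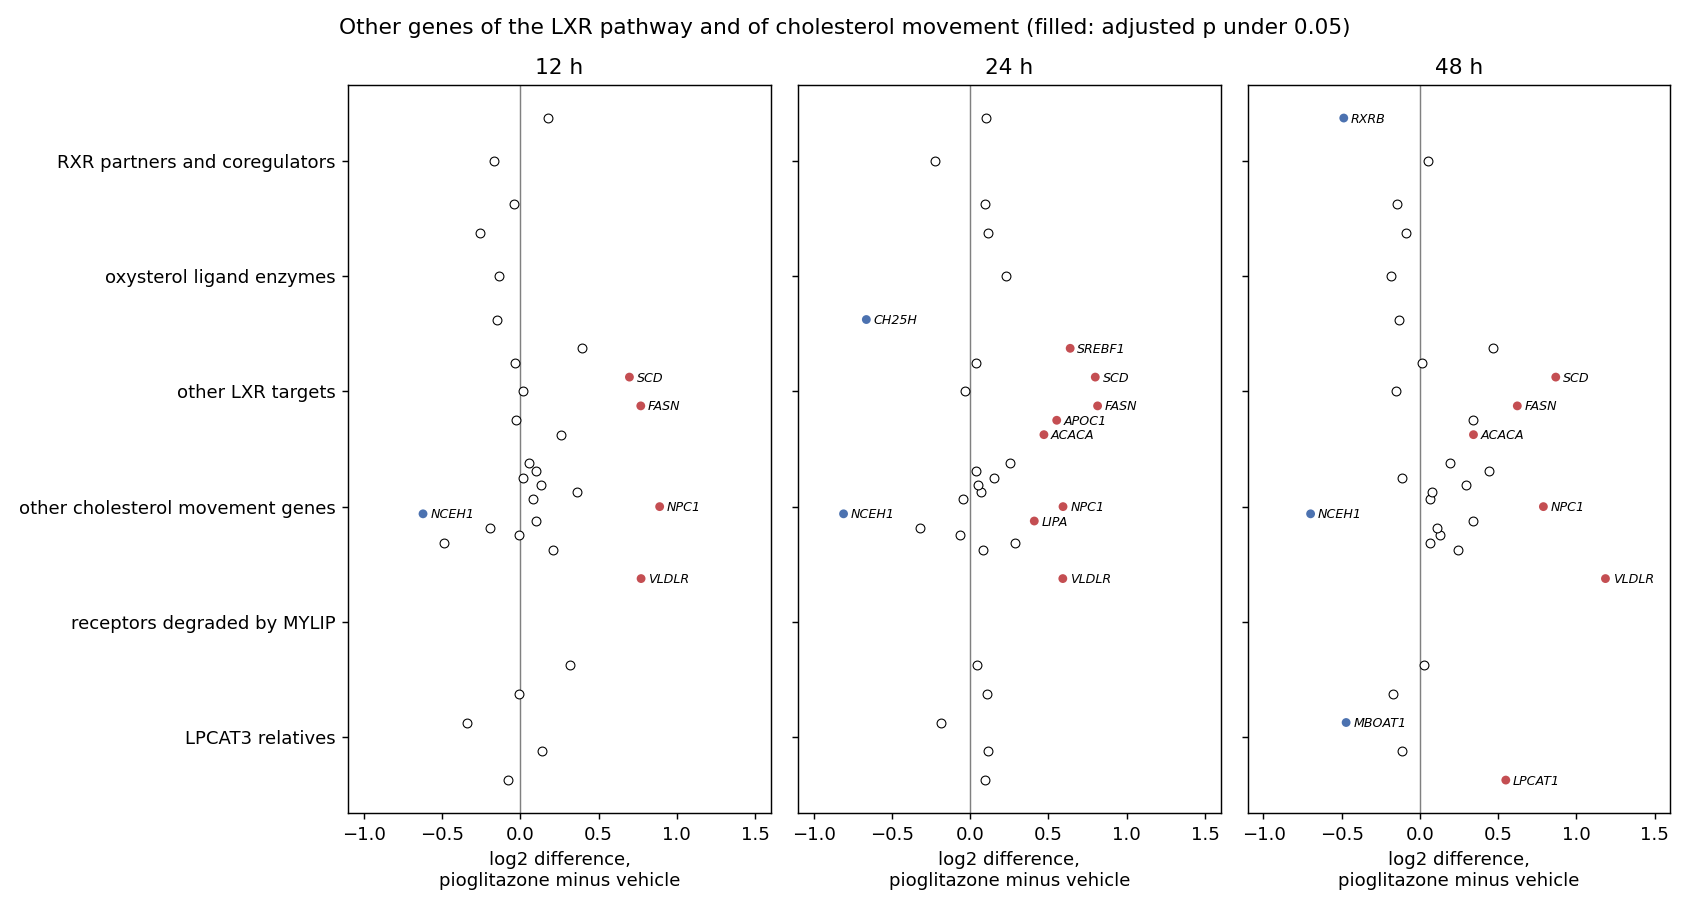
Difference in log2 signal, pioglitazone minus vehicle (x axis), of every tested gene of the 6 surrounding lists (rows) at 12, 24 and 48 h (panels); filled and named points passed the threshold, red for higher and blue for lower with pioglitazone. The other LXR targets lie mostly right of 0, NPC1 and VLDLR lie right of 0 at each time and NCEH1 lies left of 0 at each time.

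Of 15 other genes of cholesterol movement, 13 were tested, and 1 rose and 1 fell at 12 h, 2 rose and 1 fell at 24 h, and 1 rose and 1 fell at 48 h. These are 15.4%, 23.1% and 15.4% of the tested genes, beside 8.80%, 23.3% and 29.7% of all genes. NPC1, which carries cholesterol out of the lysosome, rose by 0.89, 0.59 and 0.79 (adjusted p = 0.000711, 0.00579 and 0.000424, limma). It read 10.13, 10.33 and 10.29 with pioglitazone at 12 h, against 9.47, 9.32 and 9.28 with vehicle. NCEH1, which hydrolyses stored cholesterol esters, had −0.62, −0.81 and −0.70 and fell at all 3 times (adjusted p = 0.0241, 0.00196 and 0.00388), and its second probe gave −0.55, −0.55 and −0.51. The 12 h call of NCEH1 was lost without pioglitazone replicate 1 or 3 or any 1 of the vehicle arrays, and the 48 h call in a fit of the 48 h groups alone (adjusted p = 0.0569). LIPA, the lysosomal acid lipase, rose at 24 h by 0.41 (adjusted p = 0.0295) and lost that call without pioglitazone replicate 2 or 3 or vehicle replicate 1 or 2. SCARB1, the receptor for high-density lipoprotein, had 0.02, 0.15 and −0.11 and passed at no time (adjusted p = 0.962, 0.46 and 0.564).

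Of 3 receptors that MYLIP degrades, 2 were tested. VLDLR, a receptor for triglyceride-rich lipoproteins, rose by 0.77, 0.59 and 1.19 (adjusted p = 0.00232, 0.00622 and 7.09e-06, limma). At 48 h VLDLR read 8.12, 8.04 and 8.50 with pioglitazone, against 7.13, 7.03 and 6.93 with vehicle. LRP8 had 0.32, 0.04 and 0.02 and passed at no time. Of 6 relatives of LPCAT3, 4 were tested, with 0 calls at 12 h and 24 h by limma (1 and 0 at an unadjusted p under 0.05), beside 8.80% and 23.3% of all genes. With 4 genes tested, 0 calls do not set the list apart from these shares. At 48 h LPCAT1 rose by 0.55 (adjusted p = 0.0241) and MBOAT1 fell by 0.47 (adjusted p = 0.0113), or 50% of the list beside 29.7% of all genes. LPCAT1 lost its call without pioglitazone replicate 2 or vehicle replicate 1 or 2 and with array weights (adjusted p = 0.0618), and MBOAT1 without vehicle replicate 3 and in a fit of the 48 h groups alone (0.0824). Under median scaling the calls in these 6 lists held only for FASN at 48 h, SCD at 24 h and 48 h and VLDLR at 48 h, with no sign turned.

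The genes whose signal followed each member most closely across the 18 arrays were ranked by Pearson's r, as a description, since all points share the 6 groups and the normalisation. For LPCAT3 they were DHCR7, the last enzyme of cholesterol synthesis, with r = 0.965, DNAJB2 with 0.963 and PFKFB4, a regulator of glycolysis, with 0.959. DHCR7 differed by 1.30, 1.54 and 1.38 at the 3 times. For ABCA1 they were the kinase PRKCA with r = 0.962, VAT1 with 0.959 and the desmosome-associated PPL with 0.952, and PRKCA differed by 0.33, 0.80 and 1.04. For ABCG1 they were DNAJC9, a histone chaperone, with r = 0.967, TNPO2, a nuclear import receptor, with 0.946, and TTF2 with 0.943, and TTF2 differed by −0.51, −0.87 and −1.04. For PLTP they were ATP2C2 with r = 0.940, CTBS with 0.931 and SUN3 with 0.931. The closest for NR1H3 was FIBP (r = 0.935), for APOE DCTN3 (0.874) and for MYLIP LINC00092 (0.801).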

How the data were processed

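Total RNA of 18 samples was hybridised to Illumina HT-12 v4 arrays. The authors deposited an intensity and a detection p-value per probe, made, per the submitters' processing notes, with GenomeStudio, whose version is not given in the sources used here. A second deposited table, of processed signal values, ranked the probes alike (Spearman 1 on every array) and served as an alternative. Its arrays shared a median of 10.42 and a maximum of 28863.6, so they had already been normalised between arrays. How that was done was not established. Intensities were corrected and quantile-normalised with neqc (limma 3.58.1, R 4.3.3), negative controls being inferred from detection p-values, with an offset of 16, to log2 values. Probes with a detection p-value under 0.01 on at least 3 of 18 arrays were kept (20032), and the brightest kept probe stood for a gene, giving 11680 genes. Of 47323 probes, 30113 have 1 gene symbol in the platform annotation, 8 several and 17202 none.

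limma fitted 6 group means over all arrays (12 residual degrees of freedom, threshold 0.05), and the scripts were tested on simulated data. The median SE of a log2 difference at 1 time was 0.15, a precision set by 3 arrays per group. Replicate numbers did not pair arrays (correlation of same-numbered arrays −0.26 to 0.09). The members and lists were chosen with earlier results of these data known. Named beside the members were, per list, the called genes with the largest differences (at most 3 per direction and time), otherwise up to 2 others, and the 3 genes most like each member. The alternatives were other background, offset and normalisation, filters, probes, array weights, samples fitted, a replicate block and each array left out.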

Additional observations from a re-analysis of the deposited data

Results flagged for a closer look

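The effect of pioglitazone on ABCA1 differed between times, being larger by 0.82 log2 at 48 h than at 12 h (SE 0.20; adjusted p = 0.0173, limma), with a difference of 1.07 at 48 h and 0.26 at 12 h. The effect on PLTP also differed between times, by −0.72 (SE 0.16; adjusted p = 0.00792, limma), with −0.64 at 48 h and 0.08 at 12 h. The second PLTP probe gave −0.56 (SE 0.25) and did not pass this test over all kept probes (adjusted p = 0.213, limma). Of all genes, 9.10% passed this test. Without the high-background array (pioglitazone 48 h replicate 3) the interactions were 0.87 and −0.79, both past the threshold, and under median scaling 1.01 and −0.57, neither past it (adjusted p = 0.556 and 0.99). Groups of 3 arrays were not searched for outlying samples.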

How the results depend on the processing

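With replicate number as a block, 2, 3 and 4 members passed at 12, 24 and 48 h, and the block changed no call of a member. Median scaling moved the median of all genes to 0.11, −0.20 and 0.26 at 12, 24 and 48 h. Under it 0, 1 and 2 members passed at 12, 24 and 48 h, 0 for the difference of effects between 48 h and 12 h, and 0 for vehicle at 48 h against 12 h, and the counts over all genes were 23, 448 and 554 in place of 1028, 2725 and 3469. It turned APOE to 0.12 at 12 h and −0.038 at 24 h, NR1H3 to −0.089 at 24 h and 0.057 at 48 h, MYLIP to −0.19 at 24 h and 0.027 at 48 h, and ABCG1 in vehicle (24 h against 12 h) to 0.25. Array weights gave 2 members for the difference between 24 h and 12 h, 1 between 48 h and 24 h, NR1H3 at 0.033 at 48 h, and 2527 and 5780 genes at 12 h and 24 h. For those 2 differences of effects, the settings other than leaving out 1 array gave 0 to 1968 and 11 to 1167 genes. The compared groups alone gave 1521 genes at 48 h. Leaving out 1 array gave 1 to 2 members at 12 h, 3 at 24 h and 4 to 5 at 48 h, and 2 to 3 in both vehicle comparisons. It moved APOE between −0.18 and 0.10 at 12 h and between −0.023 and 0.41 at 24 h, NR1H3 at 48 h between −0.42 and 0.080, and PLTP at 12 h between −0.012 and 0.14. It gave 588 to 775 genes at 12 h. Of 268 values of 16 called member differences, 247 kept the call, 20 lost it and 1 changed sign; the causes were not tested. The 24 called differences of list genes kept their sign in every setting run. ABCG1 and the second PLTP probe were read near background, which limits how well the size of their differences is known. For ABCG1 at 24 h the difference was −1.02 in the main fit and −0.45 without background subtraction.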

Other observations

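Of fibroblast markers, COL1A1 and COL1A2 were detected on 18 arrays and COL3A1 on 1, while PDGFRB and THY1 were detected on 0. Of endothelial markers, VWF was detected on 10 arrays and PECAM1 and CDH5 on 0. The summed signal of the fibroblast list was 311 to 388 with pioglitazone at 12 h, against 551 to 584 with vehicle. At 24 h it was 447 to 544 with pioglitazone, against 600 to 651 with vehicle, and at 48 h 709 to 736 with pioglitazone, against 504 to 643 with vehicle. The summed macrophage markers, carried by CD68 and CSF1R, read 1955 to 2114, 2234 to 2327 and 2119 to 2391 with pioglitazone at 12, 24 and 48 h, against 1856 to 1945, 1942 to 1954 and 2168 to 2276 with vehicle.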
